A study of Homo sapiens with 6 samples.

Results

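The 37 genes described here encode the actin filament, the proteins that bind, cross-link, move and anchor it, and serum response factor (SRF) with its actin-sensing coactivators. They were picked by gene symbol from the 18030 protein-coding genes of the data and matched by Entrez identifier. The list was drawn up with differences between the same groups of libraries already known. Every difference of these 37 genes between the groups is therefore given as a description, with its standard error and its call but without a p-value.

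Messenger RNA was sequenced from Huh-7 cells, an established human hepatocellular carcinoma line that still makes hepatocyte proteins such as albumin. In 3 libraries, labelled oeALKBH5, the cells had received by electroporation a plasmid that overexpresses ALKBH5, a demethylase that removes N6-methyladenosine from RNA, and RNA was taken 60 h later. The other 3 libraries are controls of wild-type genotype, which the series' design text calls parental. The same electroporation text stands beside the control samples, so the labels do not say whether control cells were pulsed or received an empty plasmid. The libraries are numbered as biological replicates, but separate cultures or transfections are not mentioned, so p-values reflect only how far these libraries differ, and that spread can be technical.

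Actin cycles between free monomer and filament, and the balance between these forms is read by the transcription machinery. The coactivators MRTFA and MRTFB bind monomeric actin, which keeps them from activating genes. When monomer is used up they enter the nucleus and join SRF at a short DNA element, the CArG box, next to genes for actins, calponin, transgelin, tropomyosin and adhesion proteins. In liver this contractile program is best known from hepatic stellate cells turning into myofibroblasts, and SRF can also work with ternary complex factors of the ELK family at immediate early genes.

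The libraries held 18607084 to 18826479 estimated counts in oeALKBH5 and 19265686 to 19378030 in control. ALKBH5 itself stood at 169, 133 and 110 CPM (counts relative to TMM-scaled library size) in oeALKBH5 and at 70.5, 74.2 and 75.5 CPM in control, and the log2 fold change was 0.90 with an SE of 0.177 (adjusted p = 0.0154 with edgeR). That call was lost without control replicate 2 or control replicate 3 (edgeR adjusted p = 0.0529 and 0.0589, within a range of 3.37e-10 to 0.0589 over all alternatives). Of 14168 genes tested with edgeR, 42.8% were called at an adjusted p under 0.05, with 2948 higher and 3114 lower in oeALKBH5. With library size alone as the scaling, the split was 4266 higher (30.1%) and 2047 lower (14.4%).

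Several other levels moved together with the groups. The 9 genes listed as hepatocyte markers, all detected, summed to 8164 to 8909 FPKM (fragments scaled by transcript length and depth) in oeALKBH5 and to 12623 to 12897 FPKM in control. Of 13 stromal genes, 3 reached 1 FPKM in any library, and the list summed to 7.64 to 7.89 FPKM in oeALKBH5 against 6.33 to 6.59 FPKM in control. Collagen gene COL1A2 was the highest of them in oeALKBH5, with means of 2.62 and 1.31 FPKM. PDGFRB and LUM, which also reached 1 FPKM, had lower means in oeALKBH5. Their means were 1.75 against 1.893 FPKM for PDGFRB and 0.8633 against 1.197 FPKM for LUM, so the list did not rise as a set. The smooth muscle genes MYH11, DES, MYOCD and LMOD1 averaged at most 0.103 FPKM in either group. The 5 endothelial and blood genes summed to 85.2 to 100 FPKM in oeALKBH5 and 86.7 to 88.6 FPKM in control, nearly all of it CD68. The part of these genes in the differences below was not tested, and in bulk RNA fewer cells of a type and less RNA per cell cannot be told apart.

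Of the 37 genes, 34 passed the expression filter. ACTA2 and ACTG2, the smooth muscle actins, and the LIM gene FHL1 did not, with 4 to 10, 0 to 5 and 3 to 13 counts per library. Among the 34, 19 were called higher in oeALKBH5, where 20.8% of all genes were, and 6 were called lower, where 22% of all genes were. With library size alone they were 22 and 4, where 30.1% and 14.4% of all genes were. Their median log2 fold change was 0.19, against 0.01 for all genes tested. Because the list was chosen on this contrast, these counts describe it and support nothing further.

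The libraries separated in most of these genes. In 19 genes all 3 oeALKBH5 libraries lay above all 3 controls (25.8% of all genes did), in 7 they lay below (27% of all genes did), and in 8 the groups overlapped; over all genes 52.8% did not overlap in either direction. The differences ranged widely in size: CNN1, TAGLN, CSRP1 and FHL2 were called with a log2 fold change of at least 1, as were 1.23% of all genes in that direction, while 11 of the 19 called higher lay between 0.14 and 0.41. oeALKBH5 replicate 1, which also held the most ALKBH5, was the highest oeALKBH5 library in 18 of the 19 genes called higher, and in 54.3% of all genes called higher. Without that library 19 of the genes were still called higher and 7 were called lower, and the median was 0.14.

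**Figure D1:**
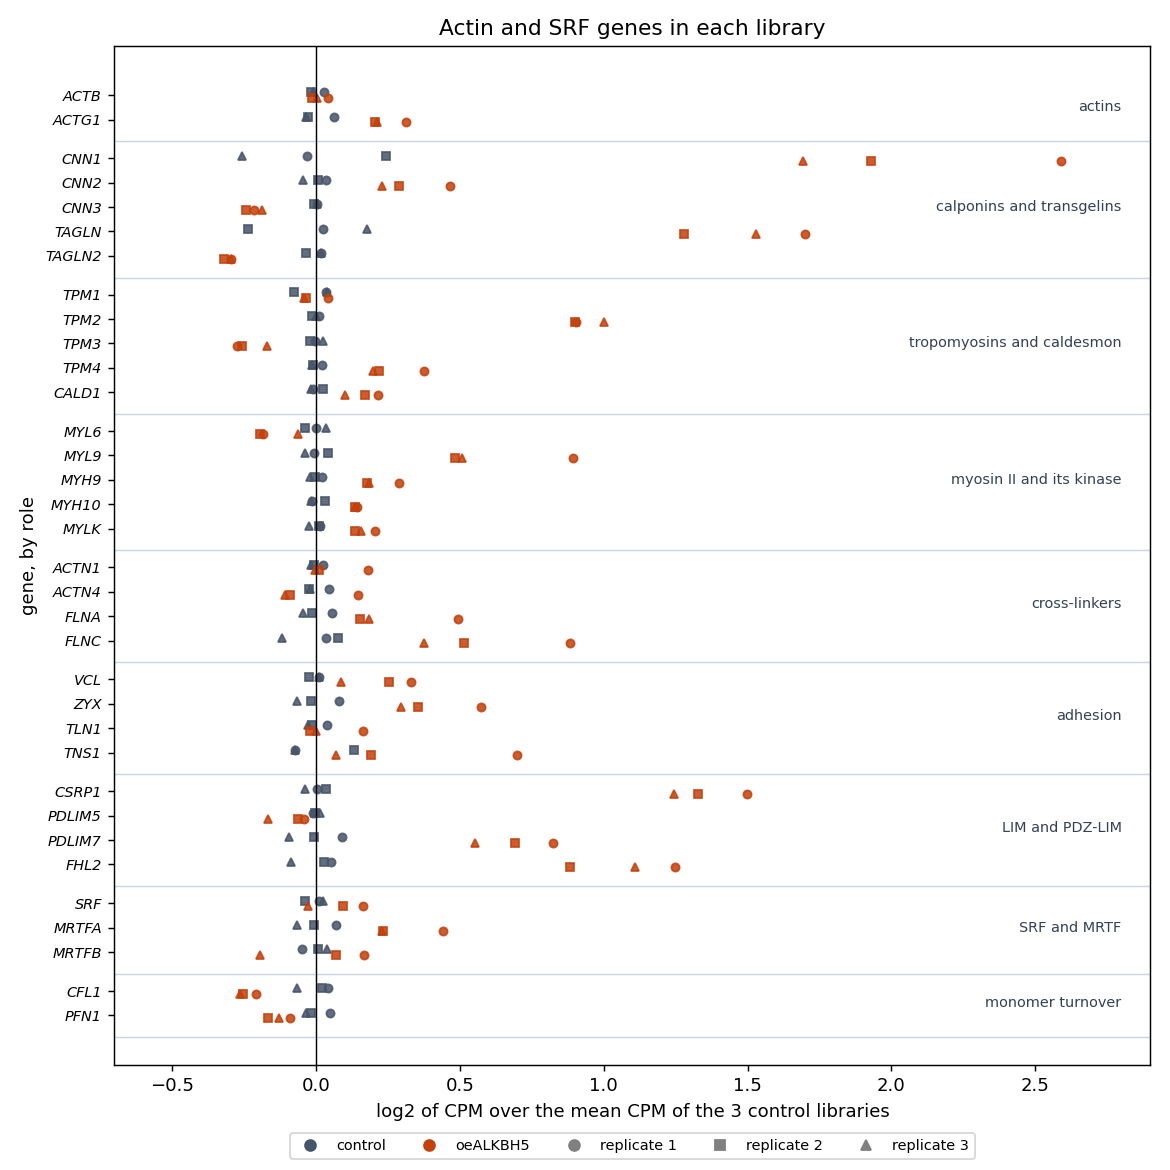
Level of each of the 34 tested genes in each library, as log2 of its CPM over the mean CPM of the 3 control libraries (horizontal axis), with genes grouped by role (vertical axis), colour for group and marker shape for replicate. CNN1, TAGLN, CSRP1, FHL2 and TPM2 lie furthest to the right, the control libraries cluster around 0, and CNN3, TAGLN2, TPM3, MYL6, CFL1 and PFN1 lie to the left.

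Of the 3 regulators, MRTFA was called higher and SRF and MRTFB were not. SRF, the transcription factor, stood at 65.7, 62.6 and 57.5 CPM in oeALKBH5 and at 59.2, 57.2 and 59.7 CPM in control. These groups overlapped, and SRF was not called (log2 fold change 0.08, SE 0.0566), though it was with library size alone (0.16). MRTFA, the coactivator most studied in this pathway, stood at 62.4, 54.0 and 53.9 CPM against 48.2, 45.8 and 44.0 CPM.

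Every oeALKBH5 library was above every control in MRTFA, which was called higher with a log2 fold change of 0.30 (SE 0.0634). Its relative MRTFB stood at 33.6, 31.5 and 26.2 CPM against 29.01, 30.1 and 30.8 CPM, so oeALKBH5 held both the highest and the lowest library. MRTFB was not called (0.02, SE 0.0786), and its sign turned without oeALKBH5 replicate 1 (-0.06) and without control replicate 1 (-0.003). Per length, SRF averaged 15.1 FPKM in control, MRTFA 10.3 FPKM and MRTFB 3.46 FPKM.

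SRF binds the CArG box, so the start of each gene was searched for it in RefSeq windows of 300 bases on GRCh38.p14, from 250 bases before to 50 bases after a transcript start; 34 of the 37 genes had such windows, 75 in all. The box reads the same on both strands, and it was the only motif searched. Of these 34, 10 (29.4%) held a box: ACTG1, ACTG2, CNN2, TPM4, MYLK, ACTN1, FLNA, FHL1, FHL2 and SRF itself. Of their 75 windows, 12 held a box. A box stood in 1.61% of the 11484 tested genes with a window and in 1.29% of all 35116 windows. ACTG2 and FHL1 were not tested, so the 29.4% and the 1.61% cover unlike sets. The 37 genes were listed in part as SRF targets, so these shares describe the choice of genes. Shown here are stretches, 5′ to 3′ on the gene's strand, from genes with a box outside the exons annotated in GENCODE release 29. These genes differ in their call: FHL2, CNN2 and TPM4 were called higher, and SRF and ACTN1 were not called. The capitals mark the boxes. The stretches lie at chr2:105438585-105438644 (minus strand) for FHL2, chr19:1026489-1026548 (plus) for CNN2, chr19:16067335-16067394 (plus) for TPM4, chr6:43171209-43171268 (plus) for SRF and chr14:68977708-68977767 (minus) for ACTN1.
FHL2: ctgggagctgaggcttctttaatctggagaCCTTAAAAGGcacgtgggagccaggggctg
CNN2: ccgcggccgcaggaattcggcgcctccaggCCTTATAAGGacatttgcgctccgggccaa
TPM4: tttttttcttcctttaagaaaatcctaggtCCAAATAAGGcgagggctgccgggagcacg
SRF: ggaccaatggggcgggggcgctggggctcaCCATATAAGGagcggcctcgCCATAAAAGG
ACTN1: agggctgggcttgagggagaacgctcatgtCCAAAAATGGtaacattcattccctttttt

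Distances are to the RefSeq start of the window that holds the box. The SRF stretch held 2 boxes, 30 and 10 bases before that start. The box lay 101 bases before it for FHL2, 89 for CNN2, 173 for TPM4 and 171 for ACTN1. For TPM4 and ACTN1 that start is an alternative one, since the stretch lies inside the gene as GENCODE annotates it. Of the 8 tested genes with a box, 6 were called higher and 0 lower, with a median log2 fold change of 0.26. Among those 6, the boxes of ACTG1 and MYLK also lay inside the annotated gene. For MYLK the box lay at chr3:123620613-123620672 (minus strand), in a gene spanning chr3:123610049-123884331. Calls were made on all transcripts of a gene summed, so they do not show which start was used. Of the 23 with a window and no box, 11 were called higher and 6 lower, with a median of 0.14. Over all tested genes the contrast was small, with 25.9% called higher and 18.9% lower among the 185 with a box, and 20.6% and 22.3% among the 11299 without. A match describes these letters, and CNN1 and CSRP1, among the genes furthest apart between the groups, had none in their windows.

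Actin made up the most abundant of these messages. ACTB, cytoplasmic beta-actin, stood at 4379, 4206 and 4259 CPM in oeALKBH5 and at 4331, 4197 and 4218 CPM in control, so the groups overlapped throughout. It was not called (log2 fold change 0.01, SE 0.0427), and its sign turned without oeALKBH5 replicate 1 (-0.004). ACTG1, cytoplasmic gamma-actin, stood at 1401, 1300 and 1306 CPM against 1176, 1105 and 1099 CPM and was called higher (0.24, SE 0.0464).

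The make-up of the actin pool therefore differed slightly between groups. Gamma-actin made 23.2%, 22.5% and 22.4% of the summed actin FPKM in oeALKBH5 and 20.4%, 19.9% and 19.7% in control. The smooth muscle actins ACTA2, whose induction marks myofibroblasts, and ACTG2 stayed below the filter, with mean levels of 0.273 and 0.0933 FPKM in oeALKBH5 and 0.190 and 0.0867 FPKM in control. The coding sequences of the actins are nearly identical, so reads divided among them by a model make each gene's value less certain than its spread shows.

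The calponins and transgelins bind along the filament and include CNN1 and TAGLN, which had the largest log2 fold changes of these genes. Their median was 0.33, with 3 called higher and 2 lower, against 0.89 for the LIM and PDZ-LIM genes. CNN1, the calponin of smooth muscle (Entrez 1264, chr19:11538717-11550323, plus strand of GRCh38), stood at 9.93, 6.28 and 5.32 CPM in oeALKBH5 and at 1.61, 1.95 and 1.38 CPM in control. No library overlapped, and the fitted difference was 4.34-fold (log2 fold change 2.12, SE 0.250). The raw counts behind it were 191, 121 and 102 against 30, 37 and 26, so the control level rests on few reads. Without oeALKBH5 replicate 1 the log2 fold change was 1.81.

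TAGLN, transgelin or SM22, an actin-bundling protein and a classical SRF target (Entrez 6876, chr11:117199321-117204782, plus strand), stood at 49.1, 36.6 and 43.6 CPM against 15.4, 12.8 and 17.1 CPM. The lowest oeALKBH5 library held more than 2 times the highest control, and the fitted difference was 2.85-fold (log2 fold change 1.51, SE 0.123). The relative TAGLN2 went the other way, with 440, 433 and 440.0 CPM against 546, 527 and 546 CPM (-0.30, SE 0.0426).

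Among calponins the same opposition appeared. CNN2, the calponin of nonmuscle cells, stood at 487, 431 and 414 CPM against 362, 354 and 342 CPM and was called higher (0.33, SE 0.0543). CNN3, acidic calponin, stood at 296, 290.2 and 302 CPM against 344, 342 and 344 CPM and was called lower (-0.21, SE 0.0429). In control CNN3 had the larger share of calponin FPKM, 51.0% ± 0.726 against 48.7% ± 0.686 for CNN2 (SD, n = 3). In oeALKBH5 the order was turned round, with 57.4% ± 1.99 for CNN2 and 41.3% ± 2.34 for CNN3. CNN1 stayed a small part of the pool, at 1.30% ± 0.369 against 0.325% ± 0.0622.

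**Figure D2:**
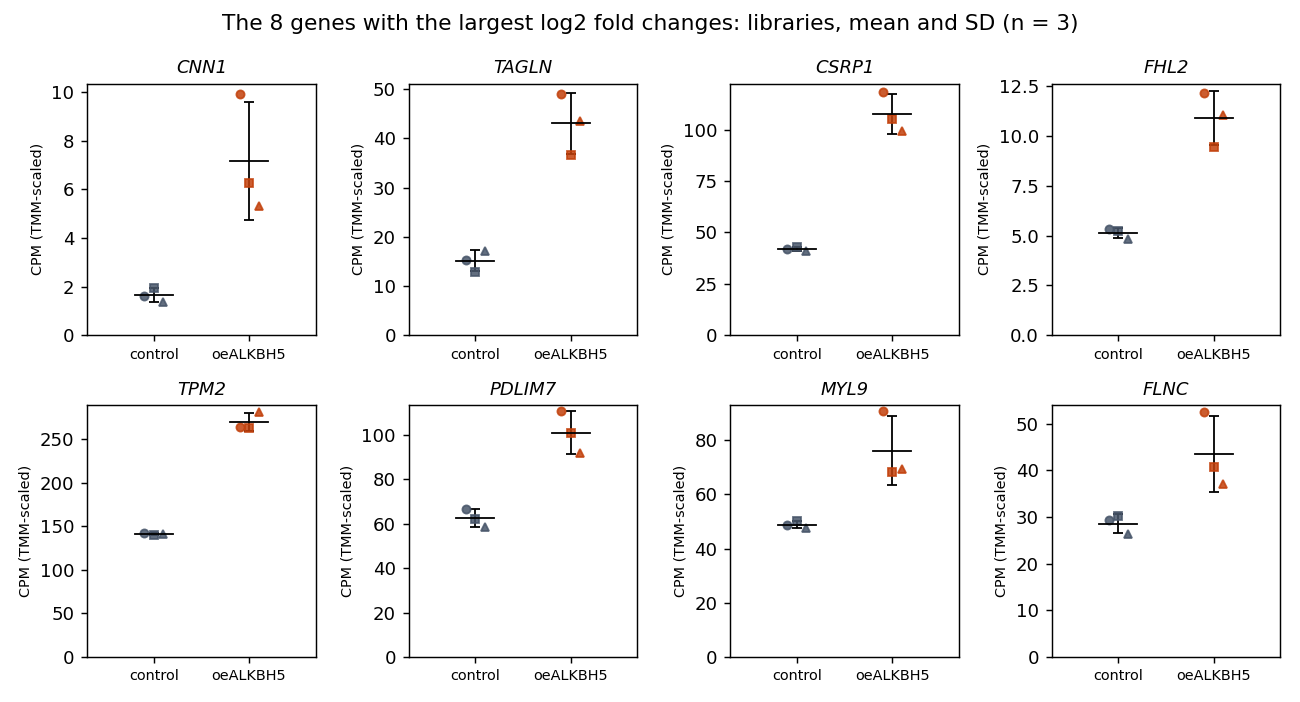
CPM (TMM-scaled, linear axes from 0) of the 8 genes with the largest log2 fold changes in the 3 control and 3 oeALKBH5 libraries, with points for libraries, a long line for the mean and bars for the SD. In none of the 8 do the groups overlap, and oeALKBH5 replicate 1 (circle) is the highest library in all but TPM2.

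Tropomyosins run along the groove of the filament and set which myosins and severing proteins reach it. TPM2, beta-tropomyosin (Entrez 7169, chr9:35681992-35690121, minus strand), stood at 263, 263 and 282 CPM in oeALKBH5 and at 142, 139.6 and 141 CPM in control. Libraries within a group differed little, and the difference was 1.91-fold (log2 fold change 0.94, SE 0.0461). With each library left out in turn the value lay between 0.90 and 0.96.

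TPM4 was called higher by less, with 1004, 902 and 888 CPM against 786, 768 and 767 CPM (0.27, SE 0.0487). TPM3 was called lower, with 536, 543 and 576 CPM against 647, 640.4 and 659 CPM (-0.23, SE 0.0443). TPM1 stood at 75.2, 71.4 and 71.1 CPM against 74.8, 69.3 and 75.2 CPM and was not called (-0.01, SE 0.0525). Its sign turned with upper quartile scaling, with library size alone, in the FPKM fits and without any of 4 libraries in turn. CALD1, caldesmon, which stabilises filaments and restrains myosin, was called higher (0.16, SE 0.0450), with 378, 367 and 349 CPM against 323, 331 and 322 CPM.

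In shares of tropomyosin FPKM, TPM2 held more and TPM3 less in oeALKBH5. TPM2 made 27.1%, 28.4% and 29.8% in oeALKBH5 and 18.2%, 18.3% and 18.4% in control. TPM3 made 19.5%, 20.7% and 21.5% against 28.8%, 29.02% and 29.5%, so TPM2 and TPM3 changed places in the order. TPM4 remained the largest part, at 45.8% ± 2.31 and 46.2% ± 0.618 (SD, n = 3), and TPM1 the smallest, at 5.24% ± 0.0625 and 6.45% ± 0.225.

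**Figure D3:**
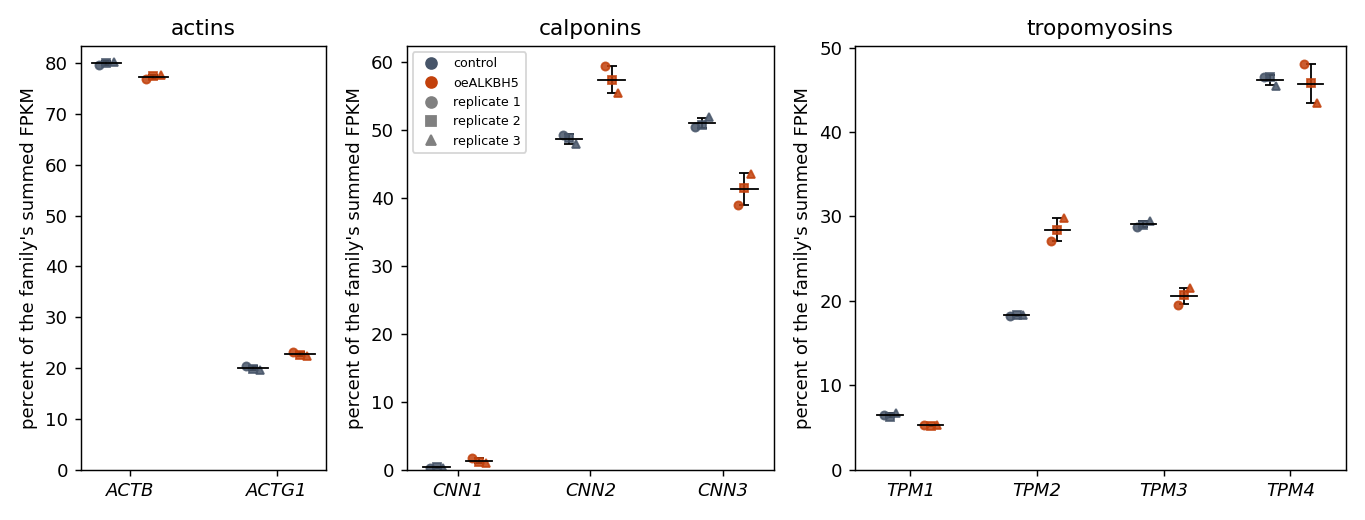
Percent of the summed FPKM of each family (vertical axes, from 0) held by each actin, calponin and tropomyosin gene in each library, with means and SD, control in grey and oeALKBH5 in orange. CNN2 against CNN3 and TPM2 against TPM3 change order between the groups, while ACTB and TPM4 stay the largest of their families; ACTA2 and ACTG2, under 0.0124% in every library, are not drawn.

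Each tropomyosin gene makes long and short isoforms from different promoters and exons. Shares of a gene's estimated counts were compared by transcript, as a description. Over all 30 of the genes with enough counts and at least 2 transcripts, 80 transcripts held a mean share of 5% or more, and 23 of them (28.7%) had shares that did not overlap between groups, against 12.9% of such transcripts over all genes. The 23 came from 15 genes. Estimated shares rest on few distinguishing reads, and transcripts of a gene are not independent of each other.

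TPM2 drew on 6 transcripts, and its most abundant one, NM_001301226.2, had a smaller share in oeALKBH5. It held 48.1%, 44.3% and 47.9% of TPM2 counts in oeALKBH5 and 56.2%, 53.1% and 55.6% in control. NM_213674.1 held 17.8%, 21.3% and 23.5% against 14.9%, 10.0% and 12.2%, and XM_017015090.2 held 7.66% ± 0.512 against 5.45% ± 0.637 (SD, n = 3). Neither overlapped between groups. The transcripts with a matched coding length, all of 284 codons, together held 73.4% ± 2.28 and 74.5% ± 3.29; no coding length was matched for the others, XM_017015090.2 among them.

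TPM1 transcripts scattered more. NM_001018006.2, of 284 codons, held 44.7%, 42.6% and 39.3% in oeALKBH5 against 40.1%, 31.8% and 33.3% in control, with 1 control library inside the oeALKBH5 range. NM_001330344.2 held 17.1% and 17.5% in oeALKBH5 replicates 1 and 2 but 33.0% in replicate 3, which lay among the controls at 31.7%, 36.8% and 38.6%. The 284-codon transcripts together made 56.8% ± 7.42 and 45.2% ± 3.05 of TPM1 counts.

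TPM3 counts came almost wholly from a single transcript of 248 codons, NM_153649.4, with 96.0%, 96.4% and 96.3% against 96.8%, 97.2% and 94.6%. The difference of 0.03 percentage points was smaller than the spread within either group. For TPM4, NM_003290.3, also of 248 codons, held 72.6%, 56.6% and 76.1% in oeALKBH5 and 56.8%, 58.9% and 63.3% in control. oeALKBH5 replicate 2 was the lowest of all 6 libraries there, and the mean difference of 8.78 points became 14.7 points without it.

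**Figure D4:**
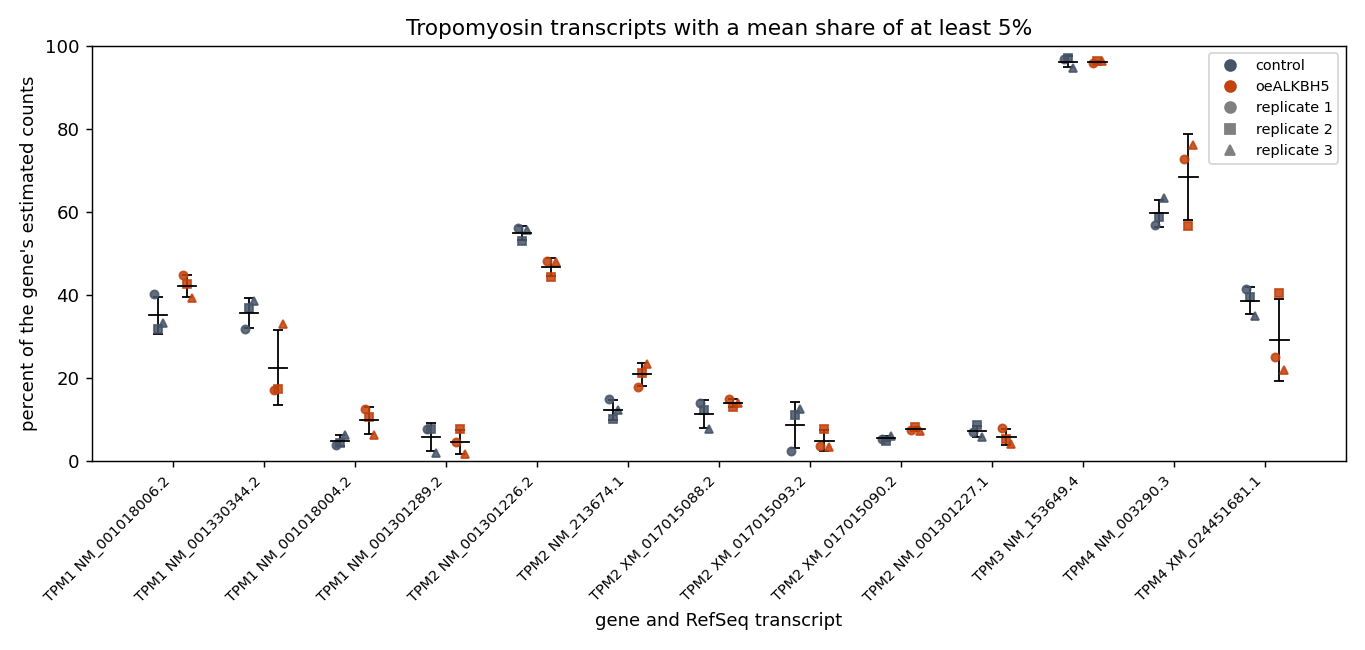
Percent of a tropomyosin gene's estimated counts held by each transcript with a mean share of at least 5% (vertical axis, 0 to 100), for 3 control (grey) and 3 oeALKBH5 (orange) libraries with mean and SD. The leading TPM2 transcript is lower and NM_213674.1 higher in oeALKBH5 without overlap, whereas the TPM1, TPM3 and TPM4 transcripts drawn overlap between the groups.

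Outside the tropomyosins, TAGLN counts came more from NM_003186.5 in oeALKBH5, 95.9%, 97.0% and 96.7% against 90.7%, 91.2% and 88.7%. Both TAGLN transcripts encode 201 codons, so this shift involved no change of coding length. In FLNA the transcript of 2647 codons held 83.9%, 79.4% and 82.1% against 70.6%, 76.0% and 78.7%, and the one of 2639 codons the rest. In PDLIM7 a short transcript of 222 codons, NM_213636.2, held 14.1% ± 1.06 against 18.7% ± 1.30 (SD, n = 3).

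Myosin II is the motor that pulls on these filaments. MYL9, the regulatory light chain that myosin light chain kinase phosphorylates (Entrez 10398, chr20:36541484-36551447, plus strand), stood at 90.8, 68.3 and 69.5 CPM in oeALKBH5 and at 48.7, 50.3 and 47.6 CPM in control. No library overlapped, with replicate 1 well above the other two, and the difference was 1.56-fold (log2 fold change 0.64, SE 0.105). The value was 0.50 without that replicate. MYL6, the essential light chain, was called lower, with 714, 709.6 and 777 CPM against 812, 790.6 and 830.4 CPM (-0.14, SE 0.0465), a call lost in 6 of 16 alternatives.

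The heavy chains differed less. MYH9, nonmuscle myosin IIA, stood at 799.5, 739.6 and 743 CPM against 665, 653 and 645 CPM (0.22, SE 0.0450). MYH10, nonmuscle myosin IIB, stood at 269.5, 268 and 268 CPM against 241, 249 and 241 CPM (0.14, SE 0.0431), and the ratio of MYH10 to MYH9 in FPKM overlapped between groups, at 0.343 ± 0.0137 and 0.362 ± 0.00895 (SD, n = 3). MYLK, the kinase, stood at 68.1, 64.9 and 65.8 CPM against 59.6, 59.4 and 58.1 CPM (0.17, SE 0.0508). All 3 were called higher without overlap, but MYH10 lost its call without control replicate 1 or 3 (0.13 each time), and MYLK without control replicate 3 (0.15).

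Cross-linkers tie filaments into bundles and networks. FLNC, the filamin of muscle (Entrez 2318, chr7:128830377-128859274, plus strand), stood at 52.6, 40.8 and 37.1 CPM in oeALKBH5 and at 29.3, 30.1 and 26.3 CPM in control, a 1.52-fold difference (log2 fold change 0.61, SE 0.129). FLNA, the ubiquitous filamin, stood at 965, 761 and 779 CPM against 712, 678 and 664 CPM. Both were called higher without overlap, FLNA at 0.29 (SE 0.0829). Without oeALKBH5 replicate 1 FLNA came to 0.17, and its call was lost without oeALKBH5 replicate 3 (0.34), control replicate 2 (0.28) or control replicate 3 (0.26). The alpha-actinins ACTN1 (0.07, SE 0.0510) and ACTN4 (-0.01, SE 0.0583) overlapped between groups and were not called. For ACTN4 oeALKBH5 held the highest library at 1099 CPM and the 2 lowest at 933 and 922 CPM, and its sign turned with upper quartile scaling, library size alone, the FPKM fits and without any of 3 libraries.

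At adhesions, filaments are anchored to integrins through talin and vinculin. ZYX, zyxin, which gathers on strained filaments, stood at 375, 322 and 309 CPM in oeALKBH5 and at 267, 249 and 241 CPM in control, a 1.33-fold difference (log2 fold change 0.41, SE 0.0652). VCL, vinculin, stood at 210.2, 199 and 178 CPM against 168, 164 and 168 CPM (0.23, SE 0.0541). Both were called higher with no overlap. TLN1, talin, was not called, with 753, 663 and 672 CPM against 691, 667 and 659.9 CPM (0.05, SE 0.0498; -0.01 without oeALKBH5 replicate 1).

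TNS1, tensin, shows how far a single library can carry a mean. It stood at 40.6, 28.6 and 26.3 CPM against 23.9, 27.5 and 23.8 CPM, so that replicate 1 alone was far above the controls. The fitted log2 fold change of 0.34 (SE 0.188) was not called and came to 0.13 without that library, yet the FPKM fits called it (0.30 with a pseudocount of 1 and 0.39 with 0.1).

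LIM and PDZ-LIM proteins sit on filaments and carry signals to the nucleus. CSRP1, a cysteine-rich LIM protein of smooth muscle and an SRF target (Entrez 1465, chr1:201483530-201509456, minus strand), stood at 119, 105 and 99.6 CPM in oeALKBH5 and at 42.1, 43.1 and 40.9 CPM in control. The groups lay far apart relative to their spread, with a difference of 2.57-fold (log2 fold change 1.36, SE 0.0620). FHL2, which can bind SRF and is itself a target (Entrez 2274, chr2:105357712-105438513, minus strand), stood at 12.2, 9.45 and 11.1 CPM against 5.32, 5.23 and 4.83 CPM, 2.12-fold higher (1.09, SE 0.118).

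PDLIM7, Enigma (Entrez 9260, chr5:177483394-177497606, minus strand), stood at 111, 101 and 91.7 CPM against 66.7, 62.4 and 58.7 CPM, 1.62-fold higher (0.69, SE 0.0663). PDLIM5, Enigma homolog, lay lower in all 3 oeALKBH5 libraries, at 170.5, 168 and 156 CPM against 174, 175 and 177 CPM, but was not called (-0.09, SE 0.0470) except when oeALKBH5 replicate 1 was left out (-0.11). Only PDLIM7 of this related pair was thus called, whereas TAGLN and TAGLN2 were called in opposite directions.

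The monomer handlers CFL1, cofilin, which severs filaments, and PFN1, profilin, which promotes exchange of ADP for ATP on monomers, were both called lower. CFL1 stood at 953, 924 and 917 CPM against 1134, 1117 and 1051 CPM (-0.24, SE 0.0446). PFN1 stood at 1570.0, 1492 and 1532 CPM against 1731, 1655 and 1633 CPM (-0.13, SE 0.0440), and its call was lost in 6 of 16 alternatives. CFL1, CNN3, TAGLN2 and TPM3 kept their lower calls in all 16.

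Per length, the genes spanned a wide range in control cells. ACTB led with 2343 ± 26.0 FPKM, followed by PFN1 with 2143 ± 56.2, MYL6 with 1267 ± 26.6, CFL1 with 895 ± 34.8 and ACTG1 with 585 ± 19.03 FPKM (SD, n = 3), each clear of the next. At the low end stood FLNC with 3.07 ± 0.215, TNS1 with 2.43 ± 0.211, FHL2 with 2.23 ± 0.163 and CNN1 with 1.10 ± 0.221 FPKM, above the 3 genes that failed the filter. Of 36 neighbouring pairs in this order, 8 had control ranges that overlapped, among them FLNA with CALD1, CALD1 with TLN1, TAGLN with MRTFB and TNS1 with FHL2. The 3 genes with the largest log2 fold changes, CNN1, TAGLN and CSRP1, averaged 1.10, 3.88 and 23.1 FPKM in control, while the 5 most abundant held 1 higher call and 3 lower ones.

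The differences were also set beside transcript length. The 7 tested genes under 1500 nt of effective length had a median log2 fold change of -0.13. The 15 genes from 1500 to 4000 nt had a median of 0.24, and the 12 longer ones a median of 0.19. Over all tested genes the medians were -0.15, -0.01 and 0.08 in the same length ranges. The Spearman correlation between length and log2 fold change was 0.118 over these 34 genes and 0.262 over all 14168, which share the same 6 libraries. The part of length in the calls was not tested.

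The wider pathway was covered by 7 lists of 141 other genes, which were also drawn up with earlier results of these data known. Of the 130 tested, edgeR called 41 higher (31.5%) and 26 lower (20%), with a median log2 fold change of 0.05, beside 20.8% and 22% of all genes. With library size alone the lower calls came to 12, where 14.4% of all genes were called lower, and in the FPKM fits to 11. The lists differed from each other, from MRTF targets with 13 of 20 higher to actin turnover with 16 of 29 lower.

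The 20 further listed targets of MRTF and SRF held 13 higher (65%) and 0 lower calls, beside 20.8% and 22% of all genes. Their median log2 fold change was 0.31. Over the 16 alternatives 10 to 16 were called higher and 0 lower, with 10 without control replicate 3; FERMT2 lost its call in 8 alternatives and CCN1 in 7. Intermediate filament gene VIM, vimentin, rose from 99.9 ± 4.55 to 179 ± 1.72 CPM (SD, n = 3; log2 fold change 0.84, SE 0.0477, edgeR adjusted p = 3.33e-11). TGFB2, a transforming growth factor, rose from 20.6 ± 0.289 to 40.9 ± 3.24 CPM (0.99, SE 0.0695, edgeR adjusted p = 1.06e-09). The remaining 11 called genes lay between 0.13 and 1.55. Over the 7 lists, 117 genes had a promoter window and 15 of them (12.8%) held a CArG box. From these targets only TGFB1I1, AKAP12 and FILIP1L did, and FILIP1L was not called. The 8 tested targets of the ternary complex factors held 1 higher (12.5%) and 0 lower calls, where 20.8% and 22% of all genes were called. Their median was 0.13, and the difference between the lists was not tested.

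That 1 gene was JUNB, an AP-1 subunit, whose log2 fold change was 0.38 with an SE of 0.101 (adjusted p = 0.0143 with edgeR), lost without oeALKBH5 replicate 3 (edgeR adjusted p = 0.0633, within 6.89e-05 to 0.0633 over all alternatives). Between 0 and 3 genes of the list were called higher over the alternatives. FOS of the same list, named after its values were seen, was not called at 0.97 (SE 0.398), though its groups did not overlap. Of 6 tested SRF cofactors 4 rose (66.7%) and 0 fell, where 20.8% and 22% of all genes did. ELK4 and MICAL2, named after their values were seen, were not called (0.09, SE 0.0907, and 0.04, SE 0.0571). The list includes a repressor, so its count gives no direction of SRF activity. ELK3, a ternary complex factor, rose by 0.66 on the log2 scale (SE 0.0815, edgeR adjusted p = 2.45e-06) and ELK1 by 0.24 (SE 0.0598, edgeR adjusted p = 0.00274). SCAI, a repressor of MRTF, rose by 0.58 (SE 0.117, edgeR adjusted p = 0.000468), and MICAL1, which oxidises actin filaments, by 0.41 (SE 0.0638, edgeR adjusted p = 3.38e-05).

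Of 18 other contractile genes tested, 7 were called higher (38.9%) and 4 lower (22.2%), with a median of 0.11. Of all genes 20.8% and 22% were, so the lower share was that of all genes. SMTN, smoothelin, rose by 0.48 (SE 0.0485, edgeR adjusted p = 1.94e-07) and MYO1C, a membrane myosin, by 0.36 (SE 0.0506, edgeR adjusted p = 1.19e-05). MYL12B and MYL12A, regulatory light chains closely related to MYL9, fell, with log2 fold changes of -0.26 (SE 0.0427) and -0.18 (SE 0.0427) and edgeR adjusted p-values of 5.57e-05 and 0.00189. The other lower calls were MYH14 at -0.22, lost in both FPKM fits, and MYO6 at -0.12, lost in 12 of 16 alternatives. MYL9 and the MYL12 genes thus carried opposite signs, and reads of such similar genes are divided by a model. Skeletal alpha-actin ACTA1, named after its values were seen, was also called higher and is given as a description without a p-value. Its level was 1.248 ± 0.236 against 0.515 ± 0.215 CPM (SD, n = 3, log2 fold change 1.27, SE 0.329). The raw counts were only 28, 25 and 19 against 9, 6 and 14, and 13 of 16 alternatives tested it. In the FPKM fits the list held 2 lower calls, and the count of all genes called lower was smaller as well.

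Genes of actin nucleation and turnover, the list nearest to CFL1 and PFN1 in function, had a median of -0.15. Of 29 tested, 16 were called lower (55.2%) and 1 higher (3.45%), where 22% and 20.8% of all genes were. GSN, gelsolin, which severs and caps filaments, fell from 510.2 ± 19.5 to 381 ± 30.2 CPM (SD, n = 3; log2 fold change -0.42, SE 0.0535, edgeR adjusted p = 4.65e-06). ARPC3, a subunit of the Arp2/3 complex that nucleates branches, fell as well (-0.30, SE 0.0496, edgeR adjusted p = 7.31e-05), while TMSB4X, thymosin beta-4, which sequesters monomer, rose by 0.46 (SE 0.116, edgeR adjusted p = 0.00305). With library size alone and in both FPKM fits the list held 8 lower and 2 higher calls. Of all genes 14.4% were called lower and 30.1% higher with library size alone. In the FPKM fits the count of all genes called lower was smaller as well. The other Arp2/3 genes of the list are named after their values were seen. ACTR2 and ARPC1A, like ARPC3, were called lower in all 16 alternatives. ACTR3, ARPC2, ARPC4 and ARPC5L lost their lower calls in 3, 5, 3 and 12 of the 16. ARPC1B and ARPC5 were not called (-0.023 and 0.045).

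Of 26 tested genes of focal adhesions and LIM proteins, 8 rose (30.8%) and 2 fell (7.69%), where 20.8% and 22% of all genes did. The median was 0.08. CSRP2 and FHL3, close relatives of CSRP1 and FHL2, rose by 0.58 (SE 0.0584, edgeR adjusted p = 1.63e-07) and 0.71 (SE 0.0988, edgeR adjusted p = 1e-05). The lower calls were PTK2, focal adhesion kinase, at -0.14 and PDLIM3 at -0.26, with edgeR adjusted p-values of 0.0367 and 0.0399. Both were lost in 10 of 16 alternatives, with values up to 0.534 and 0.162.

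**Figure D5:**
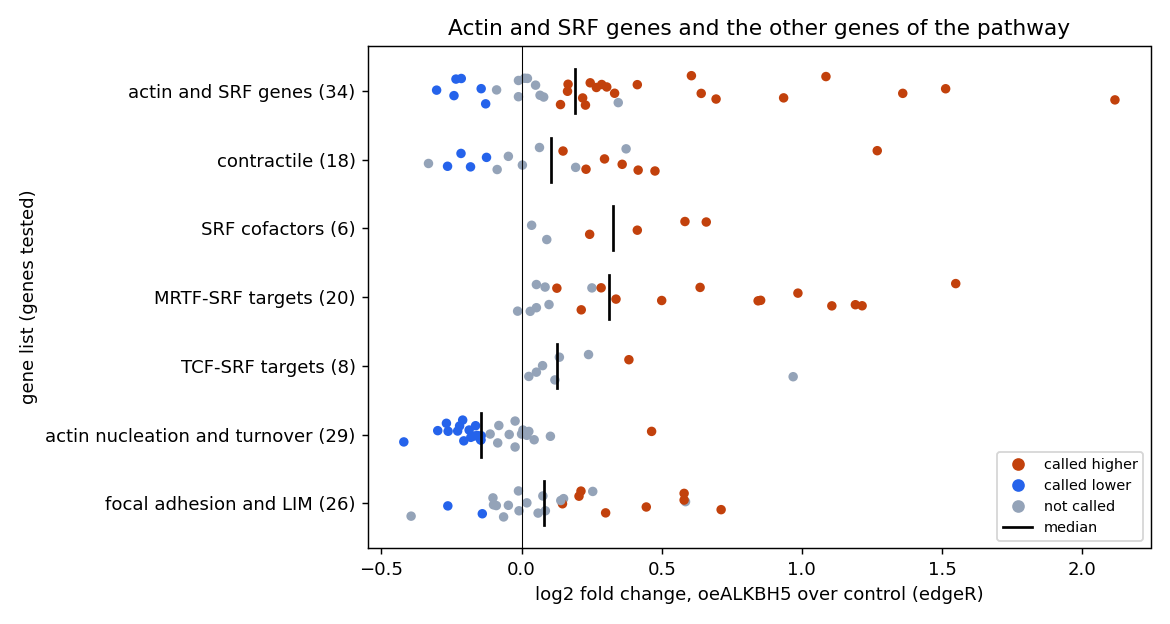
Log2 fold change of oeALKBH5 over control from edgeR (horizontal axis) for each tested gene of the 34 actin and SRF genes and of 6 other lists (vertical axis), with colour for the call and a black bar for the list's median. The targets of MRTF and SRF hold 13 of 20 genes called higher and no lower call. The turnover list holds 16 of 29 called lower (8 with library size alone). Of all genes 20.8% were called higher and 22% lower (30.1% and 14.4% with library size alone).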

How the data were processed

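Messenger RNA of 6 Huh-7 libraries, 3 oeALKBH5 and 3 control, was analysed from 2 kinds of values. The authors deposited estimated counts (expected counts, unscaled) for 80668 protein-coding RefSeq transcripts and FPKM values for the same transcripts. The build GRCh38.p13 and the tools RSEM 1.2.8, HISAT2 2.1.0 and Bowtie2 2.2.5 are named per the submitters' processing notes; what each did, the filters used and whether strand was read are not stated there. Reads shared by similar transcripts are assigned by estimation, so near-identical genes (the actins, light chains, CFL1, PFN1, TPM3 and their copies) and overlapping genes are uncertain.

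Transcript values were summed by Entrez identifier to 18030 genes and counts were rounded. Symbols came from the RefSeq table of GRCh38.p14; 149 genes without one held 0.0264% of counts. All genes entered edgeR 4.0.16 (R 4.3.3): TMM scaling, filterByExpr with 10 as the minimum count, and a robust quasi-likelihood F test, two-sided, on a design holding group only. P-values were adjusted by Benjamini-Hochberg and called under 0.05. The SE was computed as the size of the log2 fold change divided by the root of F. The biological coefficient of variation was 4.61%. CPM used TMM-scaled library sizes.

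The 37 genes and the 7 lists were chosen with earlier results of these data known. Named from each list were up to 2 higher and 2 lower genes by smallest p, and, where 5 or fewer moved one way, others among them. The genes of 1 list are counted in the totals and not reported separately here. As alternatives, scaling was replaced (size factors of DESeq2, upper quartile, library size alone), the filter was dropped or set to a mean count of 50, and the test was changed to DESeq2 1.42.0, limma-voom, or limma 3.58.1 on log2(FPKM + 1) and log2(FPKM + 0.1) after a filter (FPKM of 1 or more in at least 3 libraries), a scale on which low genes change less. Further fits added the replicate number as a block or left out each library. Transcript shares were taken for genes with a mean count of at least 50. Effective length came from counts over FPKM, gene positions and codons from GENCODE release 29 on GRCh38, promoter windows from RefSeq on GRCh38.p14, where ACTB, TAGLN and MYL9 had no entry. Every pair of libraries differed by more than counting noise, and all 6 were kept. Chi-square per degree of freedom was 1.66 to 2.36 between control libraries and 3.14 to 7.50 between oeALKBH5 libraries. The spread was thus larger among oeALKBH5 libraries, with replicates 1 and 3 furthest apart. The fits were also run on simulated counts of 13115 genes. There edgeR recovered 34 of 50 genes changed 1.25-fold and 50 of 50 changed 2-fold, with 9 false calls. Far fewer genes were changed there than were called here, and the spread was set equal in both groups. That run therefore does not show how well the fits perform on these libraries. Figures were drawn with matplotlib 3.10.9.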

Additional observations from a re-analysis of the deposited data

How the results depend on the processing

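Of the 34 tested genes, 20 kept direction and call in all 16 alternatives. Leaving out each library in turn gave 16 to 19 of them called higher and 4 to 7 lower, with a median log2 fold change of 0.14 to 0.22. With library size alone, log2(FPKM + 1) and log2(FPKM + 0.1), that median moved to 0.271, 0.265 and 0.267, all genes called lower numbered 2047, 1977 and 1974 instead of 3114, and other pathway genes called lower 12, 11 and 11 instead of 26; FPKM fits also differ in filter and test, and the cause was not tested. Signs turned only in genes that were not called: TPM1 came to 0.008 with upper quartile scaling, 0.068 with library size alone and 0.043 and 0.044 in the FPKM fits, and ACTN4 to 0.008, 0.069, 0.058 and 0.059. Without single libraries TPM1 ranged from -0.049 to 0.008, ACTN4 from -0.095 to 0.037, ACTB from -0.004 to 0.027, TLN1 from -0.009 to 0.087 and MRTFB from -0.055 to 0.120. ALKBH5 ranged from 0.73 to 1.04, and lost its call without control replicate 2 (0.91) and replicate 3 (0.92). Called lower genes of focal adhesions numbered 0 in 8 alternatives. The replicate numbers did not pair the libraries (correlations of same-numbered deviations -0.00103, 0.0203 and -0.000151). With the replicate number as a block ALKBH5 stood at 0.89 (edgeR adjusted p = 0.0538, within 3.37e-10 to 0.0589 over all alternatives), and 19 and 6 of the 34 genes were called higher and lower. With 3 libraries a group, calls rest on a spread that edgeR shares across genes.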
